A study of Mus musculus with 41 samples.

Results

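The cyclins that drive the cell division cycle were followed around the day in mouse epidermal stem cells. They were taken as 8 genes by symbol, Ccnd1, Ccnd2, Ccnd3, Ccne1, Ccne2, Ccna2, Ccnb1 and Ccnb2, through the array's platform annotation. Of these 8 genes, 7 were measured, by 16 of the 28898 probe sets that the annotation assigns to 1 gene, among 17097 genes in all. No probe set is listed for Ccnb1, which was not analysed here. Each gene was read from 1 main probe set, the brightest on average across the arrays. Values are on the log2 scale, so a difference of 1 is a doubling. Levels of different cyclins are not compared, because probe sets differ in brightness.

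RNA came from the epidermis of wild type female C57B6/J mice, 15 weeks old, and was hybridised to 41 Affymetrix arrays. The 21 high fat arrays came from mice put on a high fat diet when 8 weeks old and kept on it for 7 weeks, and the 20 control arrays from mice given the matched control diet for as long. Both diets were eaten freely, and collection was at 6 zeitgeber times (ZT, hours after lights on), ZT0, ZT4, ZT8, ZT12, ZT16 and ZT20. The high fat groups held 3, 4, 2, 4, 4 and 4 arrays and the control groups 4, 3, 2, 3, 4 and 4. The labels do not say that each array is a separate mouse, so p-values measure the spread between arrays, which may be technical. Per the design text, mice killed on 1 day belonged to 1 time point, so day of collection and time of day cannot be told apart. The labels do not say whether both diets of a time point were collected on the same day. Diet and day may therefore not be separable within a time point.

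Cyclins are the regulatory subunits of cyclin-dependent kinases, and their abundance sets which kinase is active at each step of the cycle. D-type cyclins act in G1 with CDK4 and CDK6, E-type cyclins act with CDK2 at the entry to S phase, cyclin A2 acts through S phase and G2, and B-type cyclins act with CDK1 in mitosis. In the epidermis, proliferating basal cells divide at preferred times of day, and the E2F factors, held in check by RB, and the DREAM and FOXM1 complexes are known regulators of cyclin transcription.

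Basal layer markers all read high on the arrays, while markers of the hair follicle bulge and of the suprabasal layers were mixed. Percentiles set probe sets of different brightness side by side, so they are a rough guide and do not settle the cell type. The basal markers Krt5, Krt14, Krt15, Itga6, Itgb4, Trp63 and Col17a1 lay at percentile 97.0 of gene levels or above. The bulge markers Cd34, Lgr5 and Lhx2 lay at percentiles 16.9, 25.9 and 28.5, while Sox9 and Nfatc1 lay at 86.1 and 90.4. Of the 6 suprabasal markers, Flg, Lor and Ivl lay at percentiles 1.62, 40.4 and 69.7. Sbsn, Krt10 and Krt1 lay at 98.8, 99.4 and 99.9, within the range of the basal markers. The 6 leukocyte markers ranged from 1.72 for Ptprc to 70.6 for Cd74 and 73.2 for H2-Aa. Array medians ran from 6.41 to 6.44, and correlations between arrays from 0.938 to 0.995. Among all probe sets, the ZT8 arrays of the control diet stood apart. The control ZT8 arrays lay at -82.6 and -57.3 on the second principal component (17.0% of the variance), against -28.5 to 44.7 for all others.

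Most of the cyclins cycled over the day in both diets, and their fitted peaks fell in the same order. Counted from ZT8, Ccnd2 and Ccne2 came first, near the onset of the dark phase, then Ccnd1 and then Ccnd3. Ccna2 followed at the end of the night, and Ccnb2 came last, near lights on. A 24 h cosine fitted with limma passed an adjusted p of 0.05 for 6 of 7 measured cyclins in the high fat diet, where 11.2% of all genes passed, and for 6 of 7 in the control diet, where 6.66% passed. Ccne1 was the exception in both. The median amplitude of the 7 cyclins was 0.30 in the high fat diet and 0.36 in the control diet, against 0.08 and 0.07 for all genes. The cosine test treats arrays of a time point as independent. Each group of arrays was then treated as a random block (within-group correlation 0.366). That correlation also takes in any departure of the group means from a 24 h cosine. With the block, 0 of 7 cyclins passed in the high fat diet, where 0.386% of all genes passed. In the control diet 2 of 7 passed, Ccna2 and Ccnb2, where 0.801% of all genes passed.

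**Figure D1:**
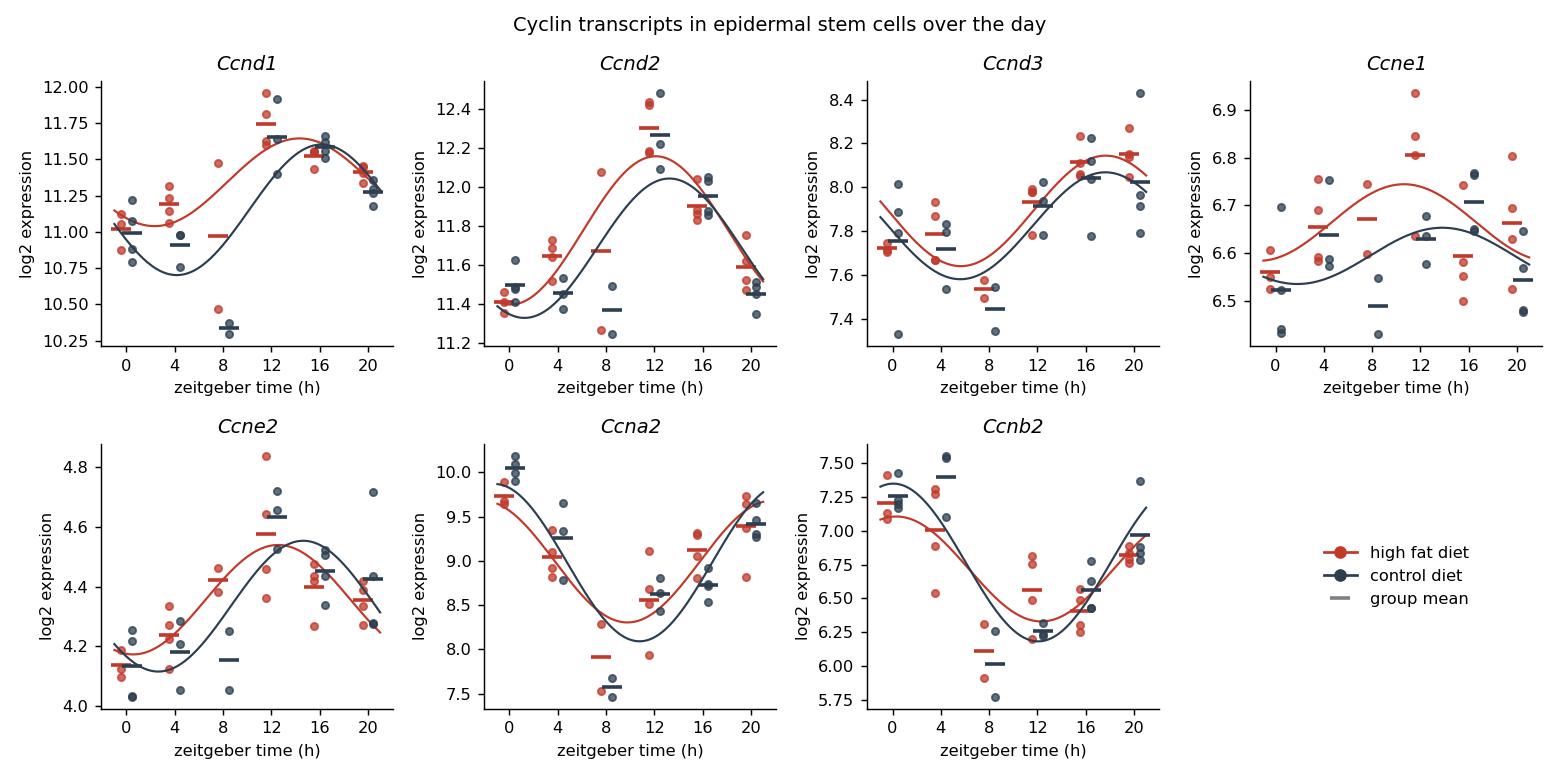
Log2 expression (y axis) of the 7 measured cyclins against zeitgeber time in hours (x axis), 1 point per array, with high fat arrays in red and set left of the control arrays in dark blue. Short bars are group means and curves are the fitted 24 h cosines. Ccna2 and Ccnb2 were lowest at ZT8, and the 2 high fat arrays of ZT8 lay far apart for Ccnd1 and Ccnd2.

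Among the D-type cyclins, which couple growth signals to the G1 kinases, Ccnd2 had the earliest peak. In the high fat diet it read 11.35, 11.46 and 11.41 at ZT0, 11.69, 11.73, 11.52 and 11.64 at ZT4, and 12.08 and 11.27 at ZT8. It then read 12.44, 12.18, 12.42 and 12.19 at ZT12, 11.83, 11.88, 11.86 and 12.04 at ZT16, and 11.62, 11.75, 11.52 and 11.47 at ZT20. Every high fat array of ZT12 was above every high fat array of the other times. Control arrays of Ccnd2 read 11.48, 11.62, 11.49 and 11.41 at ZT0, 11.54, 11.38 and 11.45 at ZT4, and 11.49 and 11.25 at ZT8. They read 12.09, 12.22 and 12.48 at ZT12, 11.88, 11.86, 12.03 and 12.05 at ZT16, and 11.49, 11.45, 11.51 and 11.35 at ZT20. ZT12 was again clear of all other times, ZT16 was clear of the 4 remaining times, and the neighbours among those 4 overlapped. The highest group mean exceeded the lowest by 1.86-fold in the high fat diet and 1.86-fold in the control diet. The fitted amplitude, from mean to peak, was 0.38 ± 0.07 (SE) with a peak at ZT12.1 ± 0.669 h (SE) in the high fat diet (limma, adjusted p = 0.000601), and 0.36 ± 0.07 with a peak at ZT13.2 ± 0.755 h in the control diet (adjusted p = 0.00172).

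Ccnd1, the D-type cyclin best known as a target of mitogen and Wnt signals, also had its highest group mean at ZT12 but a later fitted peak. In the high fat diet it read 10.87, 11.13 and 11.05 at ZT0, 11.15, 11.23, 11.06 and 11.32 at ZT4, and 11.48 and 10.47 at ZT8. It read 11.96, 11.62, 11.81 and 11.60 at ZT12, 11.55, 11.43, 11.56 and 11.55 at ZT16, and 11.40, 11.45, 11.45 and 11.33 at ZT20. The ZT8 pair spanned most of the day's range. Control arrays read 11.08, 11.22, 10.79 and 10.88 at ZT0, 10.98, 10.76 and 10.98 at ZT4, and 10.37 and 10.30 at ZT8. They read 11.40, 11.64 and 11.92 at ZT12, 11.51, 11.62, 11.66 and 11.56 at ZT16, and 11.30, 11.27, 11.36 and 11.18 at ZT20. Both control arrays of ZT8 were below all other control arrays, and ZT12 and ZT16 overlapped at the top. Its amplitude was 0.30 ± 0.08 (SE) with a peak at ZT14.3 ± 1.08 h in the high fat diet (limma, adjusted p = 0.0263), and 0.45 ± 0.08 with a peak at ZT16.2 ± 0.730 h in the control diet (adjusted p = 0.00175). The high fat call was lost without high fat ZT0 replicate 1 (adjusted p = 0.0512), and without either of 2 arrays of high fat ZT12, replicate 1 (0.0613) and replicate 3 (0.0557).

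Ccnd3, the D-type cyclin often kept in differentiating tissues, peaked in the middle of the night. Group means in the high fat diet were 7.72 ± 0.02 (SD, n = 3) at ZT0, 7.79 ± 0.14 (n = 4) at ZT4, 7.54 ± 0.06 (n = 2) at ZT8, 7.93 ± 0.10 (n = 4) at ZT12, 8.11 ± 0.08 (n = 4) at ZT16 and 8.15 ± 0.09 (n = 4) at ZT20. In the control diet they were 7.76 ± 0.30 (n = 4) at ZT0, 7.72 ± 0.16 (n = 3) at ZT4, 7.44 ± 0.14 (n = 2) at ZT8, 7.92 ± 0.12 (n = 3) at ZT12, 8.04 ± 0.19 (n = 4) at ZT16 and 8.03 ± 0.28 (n = 4) at ZT20. ZT16 and ZT20 overlapped in both diets, and in the control diet every pair of neighbours in the order of means overlapped. The amplitude was 0.25 ± 0.06 (SE) with a peak at ZT17.7 ± 0.847 h in the high fat diet (limma, adjusted p = 0.00719), and 0.24 ± 0.06 with a peak at ZT17.6 ± 0.889 h in the control diet (adjusted p = 0.0197). The control call rested on ZT8. It was lost without control ZT8 replicate 1 (adjusted p = 0.0551), without control ZT8 replicate 2 (0.0822) and without all ZT8 arrays (0.165).

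The E-type cyclins, which activate CDK2 at the start of DNA replication, come next in the cycle. Ccne2 lay at percentile 3.87 of probe set levels, so its values are close to the dim end of the array. High fat arrays read 4.19, 4.10 and 4.13 at ZT0, 4.27, 4.13, 4.23 and 4.33 at ZT4, and 4.38 and 4.46 at ZT8. They read 4.46, 4.64, 4.84 and 4.36 at ZT12, 4.27, 4.48, 4.42 and 4.44 at ZT16, and 4.27, 4.42, 4.39 and 4.34 at ZT20. ZT0 was lowest and ZT12 had the highest mean, with overlap between ZT12, ZT8, ZT16 and ZT20. Control arrays of Ccne2 read 4.22, 4.26, 4.04 and 4.03 at ZT0, 4.21, 4.29 and 4.05 at ZT4, and 4.25 and 4.06 at ZT8. They read 4.66, 4.53 and 4.72 at ZT12, 4.34, 4.43, 4.52 and 4.51 at ZT16, and 4.72, 4.28, 4.28 and 4.44 at ZT20. The ZT12 arrays lay above all ZT16 arrays, and ZT0, ZT4 and ZT8 overlapped at the bottom. The amplitude was 0.18 ± 0.04 (SE) with a peak at ZT12.5 ± 0.893 h in the high fat diet (limma, adjusted p = 0.00930), and 0.22 ± 0.04 with a peak at ZT14.6 ± 0.786 h in the control diet (adjusted p = 0.00266).

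Ccne1 varied least. Its group means lay between 6.56 ± 0.04 (SD, n = 3) at ZT0 and 6.81 ± 0.12 (n = 4) at ZT12 in the high fat diet, and between 6.49 ± 0.08 (n = 2) at ZT8 and 6.71 ± 0.07 (n = 4) at ZT16 in the control diet. The cosine had an amplitude of 0.08 ± 0.03 (SE) in the high fat diet (limma, adjusted p = 0.240) and 0.06 ± 0.03 in the control diet (adjusted p = 0.510). A test of any difference between time points did not pass either (adjusted p = 0.0666 and 0.100). It did pass without high fat ZT12 replicate 2 (high fat, 0.0196), high fat ZT16 replicate 2 (high fat, 0.0321) or control ZT0 replicate 2 (high fat 0.0469, control 0.0355). In the high fat diet it also passed with array medians subtracted (0.0434) and without ZT8 (0.0445).

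Ccna2, which encodes the cyclin of S phase and G2, had the widest daily range of the 7. Ccna2 in the high fat diet read 9.64, 9.89 and 9.68 at ZT0, 8.81, 8.93, 9.35 and 9.10 at ZT4, and 8.29 and 7.53 at ZT8. It read 9.12, 8.68, 8.51 and 7.93 at ZT12, 9.32, 8.81, 9.29 and 9.05 at ZT16, and 9.73, 8.82, 9.65 and 9.37 at ZT20. The means ran in the order ZT0, ZT20, ZT16, ZT4, ZT12 and ZT8, and each neighbouring pair overlapped. Ccna2 in the control diet read 10.10, 10.19, 9.99 and 9.91 at ZT0, 9.65, 8.78 and 9.34 at ZT4, and 7.68 and 7.46 at ZT8. It read 8.44, 8.81 and 8.64 at ZT12, 8.53, 8.74, 8.72 and 8.92 at ZT16, and 9.30, 9.27, 9.66 and 9.46 at ZT20. Here ZT0 was clear of every other time at the top, and ZT8 at the bottom. The ZT0 mean exceeded the ZT8 mean by 3.54-fold in the high fat diet and 5.55-fold in the control diet. The amplitude was 0.69 ± 0.13 (SE) with a peak at ZT21.8 ± 0.652 h in the high fat diet (limma, adjusted p = 0.00125), and 0.89 ± 0.13 with a peak at ZT22.8 ± 0.539 h in the control diet (adjusted p = 3.76e-05). With the random block the adjusted p was 0.104 in the high fat diet and 0.00964 in the control diet.

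Ccnb2, which encodes a mitotic B-type cyclin, peaked last. In the high fat diet it read 7.13, 7.41 and 7.08 at ZT0, 7.31, 6.54, 6.89 and 7.27 at ZT4, and 6.31 and 5.91 at ZT8. It read 6.76, 6.49, 6.81 and 6.20 at ZT12, 6.25, 6.57, 6.49 and 6.30 at ZT16, and 6.84, 6.76, 6.79 and 6.89 at ZT20. All high fat ZT0 arrays were above all ZT20 arrays, while ZT0 and ZT4 overlapped. In the control diet it read 7.20, 7.43, 7.23 and 7.17 at ZT0, 7.54, 7.10 and 7.56 at ZT4, and 6.26 and 5.77 at ZT8. It read 6.24, 6.22 and 6.32 at ZT12, 6.43, 6.43, 6.63 and 6.78 at ZT16, and 7.37, 6.78, 6.84 and 6.88 at ZT20. ZT4 had the highest control mean and overlapped ZT0, and ZT8 and ZT12 overlapped at the bottom. The amplitude was 0.39 ± 0.09 (SE) with a peak at ZT0.317 ± 0.887 h in the high fat diet (limma, adjusted p = 0.00966), and 0.58 ± 0.09 with a peak at ZT0.0628 ± 0.614 h in the control diet (adjusted p = 0.000165). With the random block the adjusted p was 0.330 and 0.0274.

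The start region of Ccnb2 is shown because this gene closes the order, beside that of Ccne1, which passed no test of rhythm. Both are RefSeq sequences of GRCm38.p6 on the minus strand, from 250 bases before to 50 bases after the annotated start. Ccnb2 lies at chr9:70421505-70421804 and Ccne1 at chr7:38107441-38107740. Capitals mark matches, on either strand, to the cell cycle homology region (TTTGAA or TTCGAA), the CCAAT box, the E2F site (TTTGGCGC or TTTCGCGC) or the E-box (CACGTG).
Ccnb2: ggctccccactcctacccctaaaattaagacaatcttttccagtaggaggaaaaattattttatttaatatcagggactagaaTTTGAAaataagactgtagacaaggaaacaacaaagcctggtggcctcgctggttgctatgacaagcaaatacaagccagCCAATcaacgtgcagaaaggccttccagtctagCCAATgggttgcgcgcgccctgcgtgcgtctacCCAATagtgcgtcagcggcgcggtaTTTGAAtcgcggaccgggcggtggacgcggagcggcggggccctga
Ccne1: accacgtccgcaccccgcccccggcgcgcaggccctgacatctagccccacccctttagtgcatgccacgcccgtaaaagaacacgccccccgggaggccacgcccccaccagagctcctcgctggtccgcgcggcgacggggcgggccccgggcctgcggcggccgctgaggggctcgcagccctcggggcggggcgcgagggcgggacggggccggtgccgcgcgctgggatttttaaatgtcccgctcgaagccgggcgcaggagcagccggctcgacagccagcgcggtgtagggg

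The Ccnb2 window held 3 CCAAT boxes, at -87, -54 and -21 from the start, and 2 matches to TTTGAA, at -167 and +5. The Ccne1 window held no exact match to the letters searched for the 4 motifs, and other forms of these sites were not looked for. Of 32851 RefSeq promoter windows of this length, 37.4% held CCAAT, 19.2% the cell cycle homology region letters, 0.813% the E2F letters and 7.15% the E-box. Windows were found for 4 of the 8 listed genes. Ccnb1 held 2 CCAAT boxes, Ccnd3 held 1 in 1 of its 2 windows, and Ccnd1, Ccnd2, Ccne2 and Ccna2 have no entry. A match describes letters only, and factor binding was not measured.

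The order of peaks was set out pair by pair for the 6 cyclins that passed in both diets. Counting from ZT8, a start chosen after the data were seen, all 15 pairs had the same order in the high fat diet as in the control diet. Both diets of a time point may share a collection day, so the 2 orders may not be independent. Within each diet a pair was taken as later minus earlier fitted peak, so every difference is positive by construction. An interval therefore shows whether 2 peaks were separated, and does not test an order set beforehand. For peaks about 12 h apart, as for Ccnd2 and Ccnb2, which comes first depends on the chosen start. In the high fat diet the difference in peak time had a 95% interval above 0 for 13 of 15 pairs, and for 10 with the intervals widened for 15 comparisons. In the control diet it did so for 12 of 15 pairs, and for 10 after widening. These intervals, like the cosine test, treat the arrays of a time point as independent. The whole span, from the Ccnd2 peak to the Ccnb2 peak, was 12.2 h (95% interval 9.31 to 15.1 h) in the high fat diet and 10.8 h (8.29 to 13.3 h) in the control diet.

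Neighbours in the order were not all separated. Ccne2 followed Ccnd2 by 0.446 h (-1.52 to 2.41 h) in the high fat diet and 1.39 h (-0.535 to 3.32 h) in the control diet. Ccnd1 followed Ccne2 by 1.78 h (-0.684 to 4.24 h) and 1.53 h (-0.341 to 3.39 h) in the high fat and control diets. These intervals include 0, so the place of Ccne2 among Ccnd2, Ccne2 and Ccnd1 was not resolved. Ccnd3 followed Ccnd1 by 3.33 h (0.739 to 5.91 h) in the high fat diet and 1.46 h (-0.625 to 3.54 h) in the control diet. Ccna2 followed Ccnd3 by 4.11 h (1.96 to 6.25 h) and 5.15 h (3.02 to 7.28 h). That step was the widest between neighbours in both diets, and it held after widening. Ccnb2 followed Ccna2 by 2.55 h (0.775 to 4.33 h) in the high fat diet and 1.29 h (0.0956 to 2.49 h) in the control diet, and after widening both intervals included 0.

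**Figure D2:**
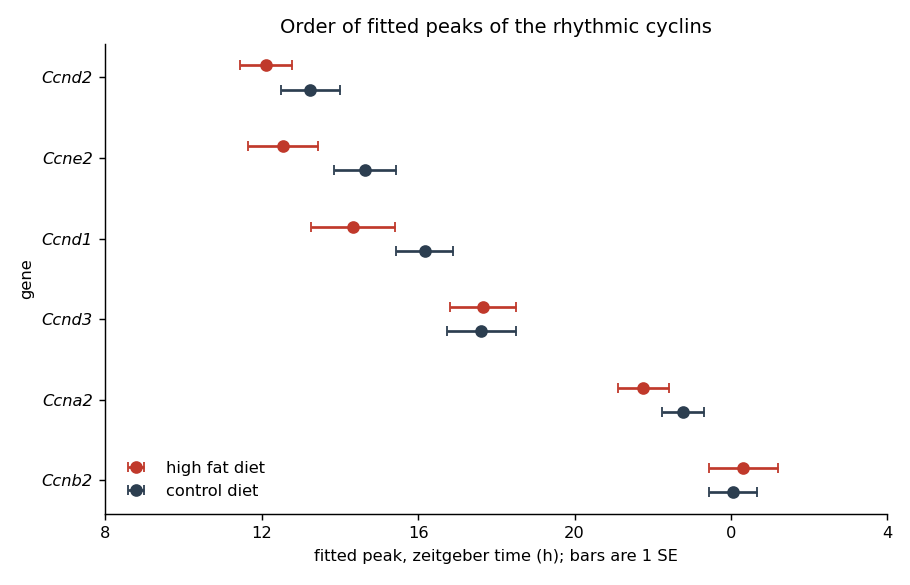
Fitted peak in zeitgeber hours (x axis, running from ZT8 through the night to ZT4) of the 6 rhythmic cyclins (y axis), with high fat in red above control in dark blue; bars are 1 SE. The order from Ccnd2 at ZT12.1 (high fat) and ZT13.2 (control) to Ccnb2 at ZT0.317 and ZT0.0628 is the same in both diets, and the first 3 genes lie close together.

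The time of the highest group mean, read without any curve, gave a coarser order, since sampling was 4 h apart. In the high fat diet Ccnd1, Ccnd2 and Ccne2 were highest at ZT12, Ccnd3 at ZT20, and Ccna2 and Ccnb2 at ZT0. In the control diet Ccnd1, Ccnd2 and Ccne2 were highest at ZT12, Ccnd3 at ZT16, Ccna2 at ZT0 and Ccnb2 at ZT4. By this measure 11 of 15 pairs in the high fat diet and 12 of 15 in the control diet had the fitted order, and the other 4 and 3 pairs were tied. A test of any difference between time points passed for 6 of 7 cyclins in the high fat diet and 6 of 7 in the control diet, against 41.5% and 43.9% of all genes. Ccnd3 no longer passed with the mean of its probe sets (limma, adjusted p = 0.0527 in the high fat diet and 0.0641 in the control diet), and its control call was also lost without ZT8 (0.112) and without control ZT8 replicate 2 (0.0557). By the main probe sets, ZT8 had the lowest group mean of Ccnd3, Ccna2 and Ccnb2 in both diets, and of Ccnd1 in the control diet. For Ccnd1 in the high fat diet ZT8 (10.97 ± 0.71 SD, n = 2) was barely below ZT0 (11.02 ± 0.13, n = 3). Its 2 other probe sets were lowest at ZT4 and ZT0 in that diet. The ZT8 arrays also differed in cell type markers. The mean of the 7 basal markers was 11.74 at ZT8 and 11.98 to 12.13 at other times in the high fat diet, and 11.53 at ZT8 and 11.99 to 12.09 at other times in the control diet. Suprabasal markers (6) averaged 9.42 at ZT8 and 9.06 to 9.23 at other times in the high fat diet, and 9.49 at ZT8 and 9.03 to 9.24 at other times in the control diet. In bulk RNA, fewer cells of a type and less RNA per cell cannot be told apart, and the part of these markers in the ZT8 values was not tested. Without all ZT8 arrays the rhythm test passed for 6 of 7 cyclins in the high fat diet (12.4% of all genes) and 5 of 7 in the control diet (3.01%), and the 15 pairs had the same order in both diets. The amplitude of Ccna2 was then 0.55 in the high fat diet (limma, adjusted p = 0.00168) and 0.69 in the control diet (7.32e-05). In this fit 9 fitted peaks moved by at least their SE, among them every one in the control diet. There Ccnd1 moved from ZT16.2 to ZT14.0, Ccnd2 from ZT13.2 to ZT11.8 and Ccna2 from ZT22.8 to ZT23.9. In the high fat diet Ccnb2 moved from ZT0.317 to ZT1.80, while Ccnd3, Ccne2 and Ccna2 moved by less than their SE.

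**Figure D3:**
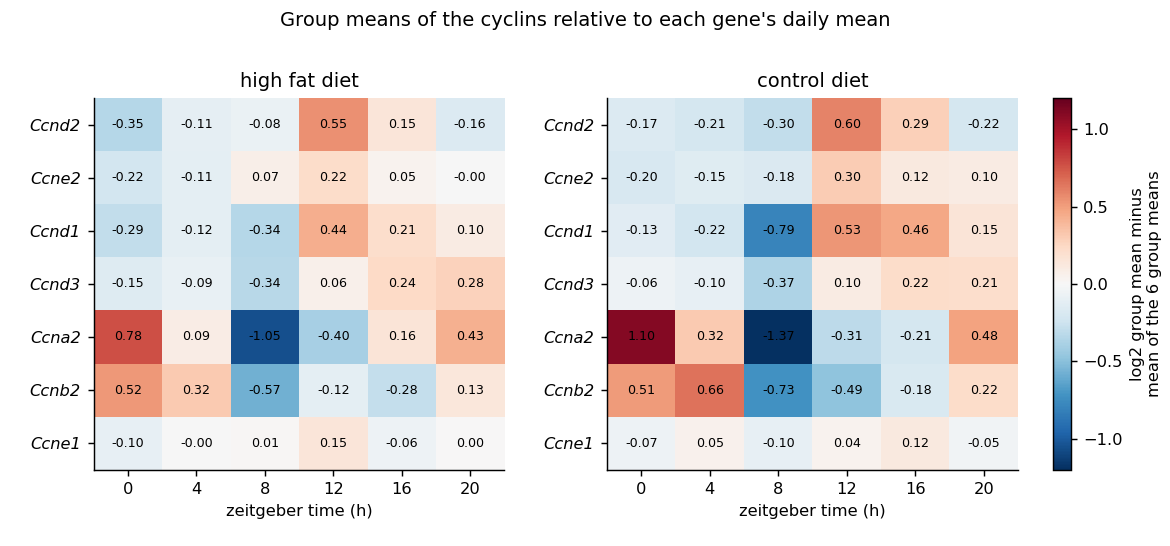
Group mean of each cyclin minus the mean of its 6 group means (log2, colour and printed value), by zeitgeber time (x axis), for the high fat diet on the left and the control diet on the right. Genes run down the page in the order of their fitted peaks with Ccne1 last, and the red cells move from ZT12 for Ccnd2 to ZT0 and ZT4 for Ccnb2.

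Calls of the early cyclins in the high fat diet rested on ZT12. Without the ZT12 arrays, an alternative chosen after the data were seen, 3 of 7 cyclins passed in the high fat diet (4.60% of all genes) and 6 of 7 in the control diet (11.7%). The calls lost were Ccnd1 (adjusted p = 0.134), Ccnd2 (0.101) and Ccne2 (0.119). All 15 pairs still had the same order in each diet, though some fitted peaks moved. That of Ccnd1 went from ZT14.3 to ZT16.2 in the high fat diet and from ZT16.2 to ZT17.8 in the control diet.

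The rhythms were then compared between the diets. No cyclin had a cosine that differed by diet (limma, 0 of 7 past adjusted p = 0.05 and 0 at an unadjusted p under 0.05, against 3.58% of all genes past the adjusted threshold). The smallest unadjusted p was 0.176, for Ccnd1. The peak in the high fat diet minus that in the control diet was -1.83 h (95% interval -4.54 to 0.874 h) for Ccnd1, -1.14 h (-3.23 to 0.952 h) for Ccnd2 and 0.0361 h (-2.50 to 2.57 h) for Ccnd3. It was -2.09 h (-4.52 to 0.346 h) for Ccne2, -1.01 h (-2.77 to 0.758 h) for Ccna2 and 0.254 h (-1.995 to 2.50 h) for Ccnb2. All 6 intervals include 0 with all arrays in, and each is several hours wide, so shifts of a few hours lie within them. Leaving out single arrays or a time point moved 3 of the 6 intervals clear of 0. Without high fat ZT8 replicate 2 the shift was -3.24 h (95% interval -5.49 to -0.980 h) for Ccnd1 and -1.86 h (-3.51 to -0.218 h) for Ccnd2. For Ccne2 it was -3.28 h (-6.27 to -0.292 h) without ZT12 and -2.50 h (-5.00 to -0.00258 h) without control ZT12 replicate 3, while with array weights it was -0.67 h ± 1.17 h (SE).

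Of the 7 cyclins, Ccnd1 passed the tests of level between the diets, by its average and at ZT8. Averaged over the time points, 1 of 7 cyclins passed (7.59% of all genes, 5.52% upward), Ccnd1, which was higher in the high fat diet by 0.19 ± 0.06 log2 (SE; limma, adjusted p = 0.0452). The average difference was -0.06 to 0.09 for the other 6, and the median of the 7 was 0.06 against 0.02 for all genes. At ZT8, 1 of 7 passed (8.34% of all genes, 5.42% upward), again Ccnd1, higher by 0.64 ± 0.18 log2 or 1.56-fold (adjusted p = 0.0241). The arrays behind it were 11.48 and 10.47 in the high fat diet against 10.37 and 10.30 in the control diet. The groups do not overlap, but the 2 high fat arrays lay far apart. Without high fat ZT8 replicate 1 the difference was 0.13 (adjusted p = 0.715), and without control ZT8 replicate 1 or 2 it was 0.68 (0.0529) and 0.60 (0.165). The average difference fell to 0.10 without high fat ZT8 replicate 1 (adjusted p = 0.177) and to 0.09 without ZT8 (0.193).

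Replicate 1 of the high fat ZT8 pair also differed from replicate 2 in its markers. The 7 basal markers averaged 12.01 in replicate 1 and 11.46 in replicate 2, against 11.47 and 11.59 in the 2 control arrays. The 6 suprabasal markers averaged 9.05 and 9.79 against 9.61 and 9.36, and the 5 bulge markers 7.13 and 7.63 against 8.04 and 7.81. The 3 measured hair matrix markers averaged 6.11 and 6.12 against 6.50 and 6.87, and the 6 leukocyte markers 6.38 and 6.34 against 6.06 and 5.84. Their part in the Ccnd1 difference was not tested.

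At the other time points no cyclin passed. The counts were 0 of 7 at ZT0 (0.854% of all genes), ZT4 (0.386%), ZT12 (18.0%), ZT16 (1.24%) and ZT20 (0.702%) by limma. An unadjusted p under 0.05 was reached in limma by Ccnd1 at ZT4 (0.28 ± 0.14 SE, adjusted p = 0.415), Ccnb2 at ZT4 (-0.40 ± 0.17 SE, adjusted p = 0.325) and Ccne1 at ZT12 (0.18 ± 0.07 SE, adjusted p = 0.0925). Diet groups without overlap were seen for Ccna2 at ZT0, where the 3 high fat arrays were below the 4 control arrays (13.4% of all genes did not overlap in 1 direction or the other), and for Ccnd1 at ZT4, higher in the high fat diet (11.2%). At ZT8 Ccnd1, Ccne1 and Ccne2 were higher without overlap, where 46.5% of all genes did not overlap. Diet by time, the test of whether the diet difference changes between time points, passed for 0 of 7 by the main probe sets (19.0% of all genes) and for 0 at an unadjusted p under 0.05.

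**Figure D4:**
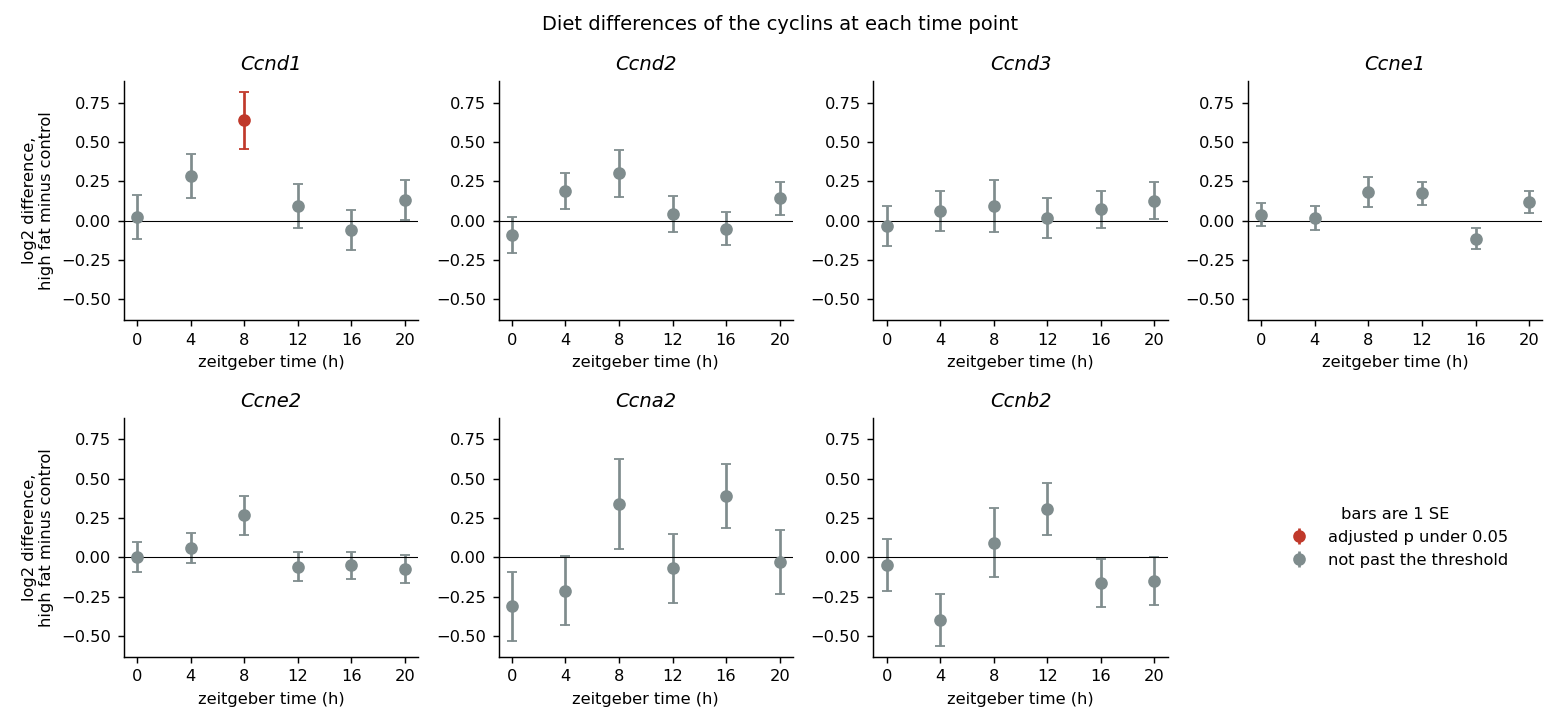
Difference in log2 expression, high fat minus control (y axis), at each zeitgeber time in hours (x axis) for the 7 cyclins; bars are 1 SE of the limma fit. The Ccnd1 difference at ZT8 (0.64, red) is the one past the adjusted threshold, and grey points did not pass.

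Where a cyclin had several probe sets they were set beside each other. The 3 probe sets of Ccnd1, the 6 of Ccnd2 and the 2 of Ccna2 all passed the rhythm test in both diets. Their peaks differed in part. The Ccnd1 probe sets peaked at ZT14.3 (main), ZT14.5 and ZT12.6 in the high fat diet, and at ZT16.2, ZT15.7 and ZT15.4 in the control diet. Those of Ccnd2 peaked from ZT12.0 to ZT12.6 and from ZT13.1 to ZT13.5. The intervals between Ccnd1 and Ccnd2 peaks rest on the main probe sets. The second Ccna2 probe set peaked at ZT23.1 in both diets. Over the 41 arrays the other probe sets correlated with the main one at 0.905 and 0.949 for Ccnd1, 0.934 to 0.985 for Ccnd2 and 0.808 for Ccna2. The second probe set of Ccnd3 averaged 5.33, passed in neither diet (adjusted p = 0.545 and 0.742, over all probe sets) and correlated at 0.166 with the main one. The probe sets of Ccnd3 therefore disagree. For Ccnd1, the 2 other probe sets passed diet by time (limma, adjusted p = 0.0387 and 0.00502, over all probe sets), as did the mean of its 3 probe sets (0.0155), while the main one did not (0.158). These 2 probe sets also passed the diet difference at ZT8, on the same 2 arrays per diet (0.84, limma adjusted p = 0.00422, and 1.03, 0.00222). Their diet averages were 0.23 (0.0182) and 0.21 (0.0496). Ccne1, Ccne2 and Ccnb2 have 1 probe set each.

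The cyclins were also described by their likeness over the 12 group means, which share time points and arrays. Ccna2 and Ccnb2 correlated at 0.864, Ccnd2 and Ccne2 at 0.861, and Ccnd1 and Ccnd3 at 0.83, while Ccne2 and Ccnb2 stood at -0.51. The genes nearest to Ccna2 were Aurkb (0.983), Prc1 (0.972) and Kif11 (0.970), which encode a mitotic kinase, a spindle midzone protein and a spindle motor. Nearest to Ccnb2 were Tpx2 (0.948), a spindle assembly factor, Cdca2 (0.945) and Tmem269 (0.933). Nearest to Ccnd1 were Mcm5 (0.968), a subunit of the replicative helicase, Mthfd1 (0.965), an enzyme of folate metabolism, and Uhrf1 (0.961), which maintains DNA methylation. Nearest to Ccnd2 were Pgm2l1 (0.959), Mogat1 (0.910) and E2f1 (0.895). Nearest to Ccne2 were Ung (0.954), a uracil DNA glycosylase, Atad5 (0.921), which unloads the replication clamp, and Mcm4 (0.916), a helicase subunit. For Ccnd3 they were Slc26a6 (0.947), Rrm2 (0.943) and Kntc1 (0.936), and for Ccne1 Dnajc11 (0.896), Crmp1 (0.894) and Plekhg5 (0.892).

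The kinases bound by the cyclins cycled in part. Of 7 genes for cyclin-dependent kinases and CKS subunits, 4 passed the rhythm test in the high fat diet and 4 in the control diet, where 11.2% and 6.66% of all genes passed. These related genes were not refitted with the random block or without single arrays. Cdk1, the mitotic kinase, peaked at ZT22.1 ± 0.755 h (SE) and ZT21.5 ± 0.62 h in the high fat and control diets, near the Ccna2 peak. Cdk2, partner of cyclins E and A, peaked at ZT16.0 ± 0.743 h and ZT16.9 ± 0.673 h. Cdk4 (ZT13.1) and Cdk6 (ZT22.7) passed in the high fat diet, and Cks1b (ZT22.2) and Cks2 (ZT22.0) in the control diet. The rhythm difference between diets passed for 0 of these 7. At ZT8, with 2 arrays per diet, 2 of these 7 passed, against 8.34% of all genes. Cks2 was higher there in the high fat diet by 1.31 ± 0.27 log2 (SE; limma, adjusted p = 0.00261) and Cdk2 by 0.50 ± 0.15 (0.0376). With ZT8 tested alone, 0 of 17097 genes passed.

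Of 7 genes for CDK inhibitors, 1 passed in the high fat diet (11.2% of all genes), Cdkn1a (ZT23.6), which encodes p21, and 2 in the control diet (6.66%), Cdkn2c (ZT23.1) and Cdkn2d (ZT22.1), which encode INK4 inhibitors of CDK4 and CDK6. The rhythm difference passed for 1 of 7 (3.58% of all genes), Cdkn2c (adjusted p = 0.0315). At ZT12, where 18.0% of all genes passed in 1 direction or the other, 3 of 7 inhibitors were higher in the high fat diet, among them Cdkn2b by 0.55 ± 0.13 (SE; limma, adjusted p = 0.00435) and Cdkn2c by 0.37 ± 0.10 (0.0112). Of 4 measured phosphatases and kinases that act on CDKs, 1 passed in the high fat diet and 3 in the control diet. Pkmyt1, an inhibitory kinase of CDK1, peaked at ZT17.5 and ZT17.2 in the high fat and control diets, and Cdc25c (ZT2.05) and Wee1 (ZT17.2) passed in the control diet.

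Regulators upstream and downstream of the cyclins were counted in the same way. Of 13 RB and E2F family genes, 2 passed in the high fat diet and 3 in the control diet, where 11.2% and 6.66% of all genes passed, as for the lists that follow. E2f1, an activator of S phase genes, peaked at ZT13.8 ± 0.525 h (SE) and ZT13.7 ± 0.573 h, the repressor E2f8 at ZT18.7 and ZT20.4, and Tfdp1 passed in the control diet (ZT14.7). Of 5 measured regulators of G2/M transcription, 3 passed in the high fat diet and 1 in the control diet. Foxm1 (ZT22.1) and Mybl2 (ZT16.8) passed in the high fat diet, and Lin9, a subunit of DREAM and MuvB complexes, in both (ZT16.8 and ZT15.8). Of 8 genes for ubiquitin ligase components that act on cyclins or their regulators, 1 passed in the high fat diet and 3 in the control diet. Cdc20, the mitotic activator of the anaphase-promoting complex, peaked at ZT0.282 ± 0.789 h and ZT0.600 ± 0.566 h, beside Ccnb2. Fbxo5 (ZT22.8) and Fbxw7 (ZT19.7) passed in the control diet, and Fbxw7, a receptor for cyclin E, was higher in the high fat diet at ZT8 by 0.78 ± 0.15 (SE; limma, adjusted p = 0.00106). At ZT8, with 2 arrays per diet, 1 of these 8 passed, against 8.34% of all genes.

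Among the cell type markers, the bulge list had the most rhythm calls in the high fat diet and the leukocyte list in the control diet. The rhythm test passed for 1 of 7 basal, 4 of 5 bulge, 1 of 6 suprabasal, 0 of 6 leukocyte and 1 of 4 melanocyte markers in the high fat diet (11.2% of all genes), and for 0, 2, 2, 3 and 0 of them in the control diet (6.66%). It passed for 0 of 5 fibroblast, 0 of 3 endothelial and 0 of 3 measured hair matrix markers in either diet. The bulge mean ran from 7.04 at ZT16 to 7.38 at ZT8 across the high fat groups and from 6.94 at ZT12 to 7.93 at ZT8 across the control groups. The leukocyte mean ran from 6.34 at ZT0 to 6.78 at ZT12 and from 5.95 at ZT8 to 6.85 at ZT20. Their part in the cyclin rhythms was not tested.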

How the data were processed

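The deposited table holds log2 values of 45141 probe sets on 41 arrays, made by the authors with RMA, per the submitters' processing notes. RMA corrects background, normalises between arrays and summarises probes. Its version is not given in the sources used here, and precision is limited by how many arrays there are. Gene names came from the platform annotation, which can be old, updated through Entrez identifiers. Coordinates and sequences are from RefSeq (GRCm38.p6).

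The tables were read with data.table (version 1.17.8) in R 4.3.3. The package limma, version 3.58.1, fitted a mean, cosine and sine of 24 h per diet (35 residual and 2.29 prior degrees of freedom) and, for diet differences, time courses and diet by time, a mean per group (29 and 2.63). P-values were adjusted by Benjamini-Hochberg over 17097 genes, with a threshold of 0.05 and no filter on low values. Peak intervals came from the delta method with the residual covariance of each pair over arrays, and were also widened by Bonferroni over 15 pairs. The fits were tested on simulated data. Figures used matplotlib 3.10.9 in Python 3.11.15.

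All 7 measured cyclins are described. Of each related list, up to 6 genes with the smallest adjusted p of rhythm in either diet could be named, and 3 nearest genes per cyclin, leaving out predicted genes. The cyclins and lists were chosen with earlier results of these data known. Alternatives were the mean of the probe sets, leaving out dim genes, other eBayes settings, array weights, array medians, blocks, time points alone, and leaving out arrays or ZT8. Leaving out ZT12 and subtracting medians of tested genes were added after the data were seen. Samples with the same replicate number did not deviate together on average (mean r = -0.03, range -0.36 to 0.31), and the main fits did not pair samples by number. With groups of 2 to 4 arrays this check cannot exclude a pairing.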

Additional observations from a re-analysis of the deposited data

Results flagged for a closer look

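Among 49 groups of 4 arrays tested for the 7 cyclins, 3 held an array far from its group, judged by its gap to the nearest other array as a share of the group's range. Chance alone gives about 1 in 20. Ccnd1 in high fat ZT16 replicate 2 read 11.43 against 11.55 to 11.56 in the others (share 0.938). Ccnd3 in high fat ZT12 replicate 1 read 7.78 against 7.98 to 7.99 (0.932). Ccnb2 in control ZT20 replicate 1 read 7.37 against 6.78 to 6.88 (0.837).

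By its main probe set, no cyclin among the 7 passed a test of a diet difference that changes with time, though 2 other probe sets of Ccnd1 did (limma, adjusted p = 0.0387 and 0.00502). Among related genes, also by 1 probe set each, the search covered only the genes that could be named, up to 6 per list. The cosine differed between diets for Cdkn2c (limma, adjusted p = 0.0315) and Ccng2 (0.0427). These were 1 of 7 inhibitor genes and 1 of 16 cyclins outside the set, against 3.58% of all genes. The diet difference changed between time points for Cks2 (limma, adjusted p = 0.00717), Ccni (0.00943), Pkmyt1 (0.0111), Fbxw7 (0.0113), Cdkn2b (0.0187), Cdc25c (0.0235), Cdkn2c (0.0296), Lin52 (0.0353), Ccng2 (0.0383) and Cdk2 (0.0445). Over the whole lists, diet by time passed for 2 of 7 CDK and CKS genes, 2 of 7 inhibitors and 2 of 4 phosphatases and kinases. It passed for 3 of 13 RB and E2F genes, 1 of 8 ligase genes, 1 of 5 G2/M regulators and 4 of 16 cyclins outside the set. Of all genes, 19.0% passed. With the random block, 1 of 17097 genes passed the rhythm difference.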

How the results depend on the processing

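The cyclin differences past the threshold were the diet average of Ccnd1 and Ccnd1 at ZT8, which share the ZT8 arrays. Neither turned direction under the alternatives run. Of 55 signed differences (diet by time point, diet average and peak shift), 24 that had not passed changed sign under at least 1 alternative. Among them were the peak shift of Ccnb2 (0.254 h, and -0.256 h with array weights), the averages of Ccna2 (0.02, and -0.05 without ZT8) and Ccne2 (0.02, and -0.02 without ZT8), and Ccnd3 at ZT12 (0.02, and -0.12 with the mean of the probe sets). The diet average had 0 cyclins past the threshold with the replicate block (Ccnd1 adjusted p = 0.0525), where 6.81% of all genes passed, and without ZT8 (5.12%). It also had 0 after subtracting each array's median over tested genes (Ccnd1 0.0825), where 6.73% passed. The replicate block changed no other call. Leaving out single arrays gave 0 to 2, and Ccnd1 was lost without any of 26 of 41 arrays (0.10 to 0.19 log2, adjusted p 0.05 to 0.177). It stayed past the threshold without control ZT0 replicates 1 and 2, ZT4 1, ZT8 1, ZT12 3, ZT16 2 and 3 and ZT20 3, and without high fat ZT0 1, ZT4 3, ZT8 2, ZT12 2 and 4, ZT16 2 and ZT20 4. The diet difference at ZT8 had 0 with array weights (Ccnd1 0.112), where 2.22% of all genes passed against 8.34% in the main fit. It had 0 with the time point alone (Ccnd1 0.552), where 0 of 17097 genes passed. Without high fat ZT8 replicate 1 the Ccnd1 difference at ZT8 was 0.13. Without high fat ZT8 replicate 2, Ccnd2 also passed at ZT8 (0.71, adjusted p = 0.0011), and Ccnd1 (0.000857) and Ccnd2 (0.00836) passed diet by time, which had 0 to 2 without single arrays and 1, Ccnd1 (0.0155), with the mean of the probe sets. At ZT12 the count was 1, Ccne1 (0.047), with array weights, where 23.3% of all genes passed. It was 0 to 1 without single arrays, rising without high fat ZT12 replicate 2 (0.0296). The rhythm count in the high fat diet was 3 without ZT12 and 0 with the random block, and in the control diet 2 with the random block. Ccnd3 in the control diet was also lost with the mean of the probe sets (0.195) and array weights (0.0777). Rhythm counts without single arrays were 5 to 6 in both diets. Ccne1, Ccne2 and Ccnb2 fell below the filter on dim genes, so no peak order was given there. The cause of these changes was not tested.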

Other observations

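Cyclins outside the G1, S and G2/M set were measured for 16 genes. The cosine passed for 0 of 16 in the high fat diet and 2 of 16 in the control diet, against 11.2% and 6.66% of all genes. Ccnf, whose product is an F-box protein, peaked at ZT23.7 ± 1.02 h (SE) in the control diet (limma, adjusted p = 0.0358). Ccng2, which encodes a cyclin linked to growth arrest, peaked at ZT0.135 ± 1.04 h there (0.0380) and was higher in the high fat diet at ZT12 by 0.75 ± 0.19 log2 (SE; adjusted p = 0.00669). At ZT12, 1 of these 16 passed, against 18.0% of all genes. A test of any difference between time points passed for 7 of 16 in the high fat diet and 9 of 16 in the control diet, against 41.5% and 43.9% of all genes.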
